A study of Sus scrofa domesticus with 6 samples.

Results

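Mineral is laid down in cartilage and bone by a small set of enzymes, transporters and inhibitors that set the balance of phosphate and pyrophosphate around the cell. Here 9 such genes, ALPL, ENPP1, ANKH, PHOSPHO1, SLC20A1, SLC20A2, SMPD3, PHEX and MGP, were followed in the mandibular condyle of miniature pig embryos. They were looked up by gene name among the 25322 gene rows of the deposited table. A row was found for 7 of the 9, with 1 row per name, and no row was named SLC20A1 or SLC20A2. A table of gene IDs and symbols assigns SLC20A2 to a row that carries no name, and its values are given separately from the 7. SLC20A1 is not analysed here.

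Mineral crystals begin in matrix vesicles, small membrane sacs that hypertrophic chondrocytes and osteoblasts release into the matrix. Inside them PHOSPHO1 frees phosphate from phosphocholine, which sphingomyelinases such as SMPD3 supply, and on their surface the tissue-nonspecific alkaline phosphatase ALPL splits pyrophosphate into phosphate. Pyrophosphate blocks crystal growth; ENPP1 makes it from ATP outside the cell, and ANKH is needed to release it, with ATP, from the cell. SLC20A1 and SLC20A2 carry phosphate into cells with sodium, PHEX restrains the phosphate-wasting hormone FGF23, and MGP is a vitamin K-dependent protein that keeps cartilage and artery walls free of mineral.

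The condyle is the growing end of the lower jaw at the temporomandibular joint. Total RNA depleted of ribosomal RNA was sequenced from embryos of 45 days and of 85 days, with 3 libraries at each age and no treatment or genotype that sets the ages apart in the labels. The samples are labelled as cartilage holding chondrocytes and osteocytes. The labels do not say whether the libraries come from separate embryos, so p-values reflect only how much these libraries differ, which may be technical. Total counts ran from 12546729 to 16559616 per library, so 1 count was worth less than 0.1 CPM (counts scaled to a common library total). Levels below are CPM after scaling of the libraries by the trimmed mean of M-values (TMM), changes are day 85 over day 45 from edgeR's quasi-likelihood test, and adjusted p-values carry the Benjamini-Hochberg correction over the 15022 genes tested. Means are given ± SD with n = 3 libraries, and 95% intervals are those of single genes, without correction over genes.

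The libraries did not match the cartilage label equally, and day 85 replicate 2 stood apart. All 9 chondrocyte markers with a row were lower at day 85 in every library than in any at day 45, as were 17.6% of all tested genes, and 2 of the 9 were called; their summed levels were 11516 to 14717 CPM at day 45 and 944.0, 4596.0 and 1880.8 CPM in day 85 replicates 1, 2 and 3. Osteoclast markers summed to 338.2 to 1385.9 CPM at day 45 and to 1954.8, 13821 and 2384.0 CPM at day 85. Skeletal muscle markers summed to 3060.3 to 6863.7 CPM and then to 23837, 1868.9 and 21328 CPM. For those of the 9 genes that could be fitted, the log2 fold change is therefore given with and without day 85 replicate 2. For list genes whose test is printed, the adjusted p is given both ways. The fits without it compare day 45 with day 85 replicates 1 and 3, which had the lowest chondrocyte and the highest skeletal muscle sums. In whole tissue, fewer cells of a type and less RNA per cell cannot be told apart.

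PHOSPHO1 and ALPL free phosphate, and SMPD3 feeds the first of them. The levels of all 3 overlapped between the ages and none passed the test with all libraries. PHOSPHO1 had the lower mean at day 85 and passed without day 85 replicate 2, and ALPL and SMPD3 did not pass without it.

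PHOSPHO1, the phosphatase of the vesicle interior, gave 2316, 1845 and 1374 counts in day 45 replicates 1, 2 and 3, and the counts in those of day 85 were 517, 1384 and 877. These are 141.8, 133.1 and 89.9 CPM and then 40.0, 92.3 and 57.8 CPM. The ages touched at a single point: day 85 replicate 2 lay just above day 45 replicate 3, and the other 2 libraries of day 85 lay below all of day 45. The means were 121.6 ± 27.8 and 63.3 ± 26.6 CPM, or -0.94 on the log2 scale, with a standard error (SE) of 0.33, a 95% interval of -1.73 to -0.15 and an adjusted p of 0.126. Without day 85 replicate 2 the log2 fold change was -1.31 (SE 0.25) with an adjusted p of 0.0160, in a fit that called 22.3% of all genes.

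ALPL, the enzyme whose loss causes hypophosphatasia, had levels of 130.0, 139.6 and 74.4 CPM at day 45 and then of 127.2, 203.2 and 134.5 CPM. Day 85 replicates 1 and 3 lay within the range of day 45, and only replicate 2 lay above it. Between the ages ALPL differed by 0.43 on the log2 scale (SE 0.29, 95% interval -0.25 to 1.12, adjusted p = 0.354), so the data leave room for a small fall as well as for a rise of 1.12 on the log2 scale. Leaving out day 85 replicate 2 brought the difference to 0.19 (SE 0.26, adjusted p = 0.632).

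SMPD3, the neutral sphingomyelinase that is lost in the fragilitas ossium mouse, stood at 152.9, 134.5 and 86.9 CPM in the younger libraries and at 103.2, 257.1 and 131.8 CPM in the older. The pattern was like that of ALPL, with day 85 replicates 1 and 3 inside the day 45 range and replicate 2 above it. For SMPD3 the log2 fold change was 0.39 (SE 0.38, 95% interval -0.52 to 1.31, adjusted p = 0.524), and its sign turned without day 85 replicate 2, to -0.08 with an SE of 0.25.

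**Figure D1:**
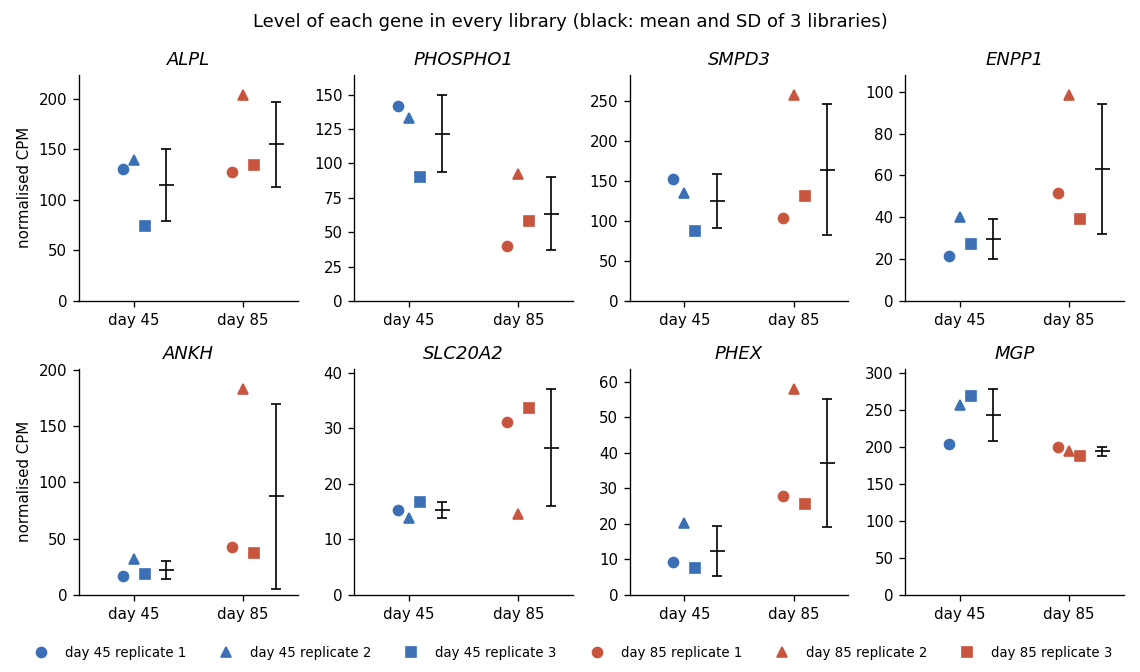
Normalised CPM (vertical axis, from 0) of the 7 genes found by name and of SLC20A2 in each library, with circles, triangles and squares for replicates 1, 2 and 3 and black bars for the mean and SD of 3 libraries. Day 85 replicate 2 is the highest of all 6 libraries for ALPL, SMPD3, ENPP1, ANKH and PHEX, where ANKH reaches 182.5 CPM, and the lowest of day 85 for SLC20A2 at 14.5 CPM.

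Both genes of pyrophosphate supply, ENPP1 and ANKH, had higher fitted levels at day 85, by 2.13-fold and 3.89-fold, and neither passed the test. Much of the distance lay in day 85 replicate 2.

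ENPP1, the ectoenzyme whose loss causes arterial calcification in infants, had 348, 557 and 419 counts at day 45, against 666, 1474 and 598 later. The levels were 21.3, 40.2 and 27.4 CPM and then 51.5, 98.3 and 39.4 CPM. Day 85 replicate 3 lay just under day 45 replicate 2, so the ages overlapped in that pair of libraries. The log2 fold change was 1.09 with an SE of 0.40, a 95% interval of 0.14 to 2.04 and an adjusted p of 0.136. With day 85 replicate 2 left out it was 0.62 (SE 0.27, adjusted p = 0.146).

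ANKH, the membrane protein of the progressive ankylosis locus, was counted 276, 438 and 290 times at day 45, against 550, 2738 and 565 times later. In CPM it stood at 16.9, 31.6 and 19.0 and then at 42.5, 182.5 and 37.3. The ages did not overlap, and day 85 replicate 2 was 4.58 times the mean of replicates 1 and 3. In that comparison 6.16% of the 14374 genes with at least 1 CPM reached 2-fold. ENPP1, SMPD3 and PHEX also reached it, at 2.16, 2.19 and 2.16 times, and ALPL, PHOSPHO1, MGP and SLC20A2 did not. The log2 fold change of ANKH was 1.96 with an SE of 0.69 and a wide 95% interval of 0.29 to 3.63 (adjusted p = 0.130). Without day 85 replicate 2 it was 0.83 (SE 0.27, adjusted p = 0.0678), and without each of the other 5 libraries in turn it was 1.76 to 2.33.

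SLC20A2, a sodium-dependent phosphate transporter that is mutated in familial brain calcification, was not high in day 85 replicate 2, where ALPL, SMPD3, ENPP1, ANKH and PHEX peaked. The row assigned to it held 250, 192 and 255 counts at day 45, against 404, 217 and 511 later. These counts are 15.3, 13.8 and 16.7 CPM in the younger tissue and 31.2, 14.5 and 33.7 CPM in the older, so that replicates 1 and 3 lay above day 45 and replicate 2 lay within it. Its log2 fold change was 0.79 (SE 0.31, 95% interval 0.05 to 1.54, adjusted p = 0.154). Without day 85 replicate 2 it was 1.09 (SE 0.15, adjusted p = 0.00515), in a fit that called 22.3% of all genes. With any other single library left out, SLC20A2 was not called (adjusted p from 0.237 to 0.354). DESeq2 called it higher with all libraries (adjusted p = 0.0466), in a fit that called 23.3% of all genes.

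PHEX, the endopeptidase of osteoblasts and osteocytes that is lost in X-linked hypophosphataemia, was the scarcest of the 7. It had 153, 282 and 114 counts at day 45, against 359, 867 and 389 later, or 9.37, 20.3 and 7.46 CPM and then 27.8, 57.8 and 25.6 CPM. Every day 85 library lay above every day 45 library, and replicate 2 was the highest at each age. A log2 fold change of 1.58 had an SE of 0.49 and a 95% interval of 0.39 to 2.78, with an adjusted p of 0.102. Without day 85 replicate 2 it was 1.12 (SE 0.41, adjusted p = 0.103). FGF23, the hormone that rises when PHEX is lost, was itself scarce, at 9.06, 6.49 and 3.60 CPM and then 4.95, 14.3 and 1.65 CPM (adjusted p = 0.931, and 0.265 without day 85 replicate 2).

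MGP, the matrix Gla protein that restrains mineral, was the most abundant and, at day 85, the steadiest of the 7. Its levels were 203.0, 256.3 and 268.6 CPM at day 45, against 199.8, 193.8 and 187.2 CPM later. The ages did not overlap, although day 45 replicate 1 lay close to day 85 replicate 1. The highest library was 1.32 times the lowest at day 45 and 1.07 times at day 85, against medians of 1.29 and 1.42 over the 14374 genes. The log2 fold change was -0.33 with an SE of 0.14 and a 95% interval of -0.66 to 0.00 (adjusted p = 0.176), and -0.33 (SE 0.15, adjusted p = 0.167) without day 85 replicate 2.

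Of the 7 genes found by name, 0 were called at an adjusted p under 0.05 in edgeR, where 6.56% of all tested genes were called. Unadjusted p-values were under 0.05 for 4 of 7, ENPP1, ANKH and PHEX with higher and PHOSPHO1 with lower levels at day 85, against 29.1% of all genes. In 3 of 7, ANKH, PHEX and MGP, the ages did not overlap, against 35.0% of all genes (17.4% with day 85 above and 17.6% with day 45 above). The median log2 fold change of the 7 was 0.43, with 5 positive and 2 negative, beside a median of 0.02 over all tested genes. DESeq2 called the same ENPP1, ANKH and PHEX higher (adjusted p = 0.0118, 0.0488 and 0.00162) and PHOSPHO1 lower (adjusted p = 0.0100), 4 of 7 where it called 23.3% of all genes.

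**Figure D2:**
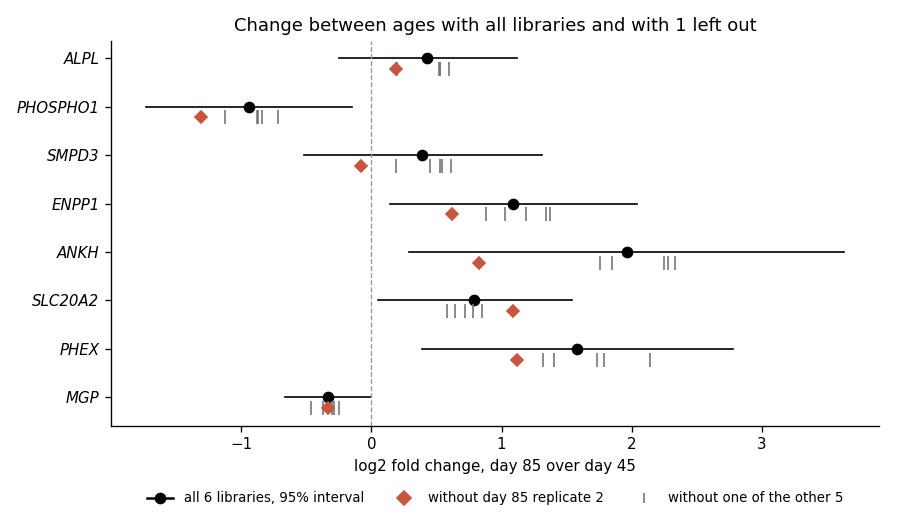
Log2 fold change of day 85 over day 45 (horizontal axis) with all 6 libraries (black, with the 95% interval from edgeR) and with 1 library left out (red diamonds without day 85 replicate 2, grey ticks without one of the others). Leaving out day 85 replicate 2 moves ANKH from 1.96 to 0.83 and SMPD3 from 0.39 to -0.08, and moves PHOSPHO1 and SLC20A2 away from 0.

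Levels of different genes can be set side by side only per length, as in the deposited FPKM (fragments scaled by gene length and library total). The lengths behind them ran from 663 bases for MGP and 879 for PHOSPHO1 to 3687 for PHEX, and for PHOSPHO1 the length equals the whole span of its row, from 25384751 to 25385629 on chromosome 12. An untranslated part missing from such a model would shift a gene's FPKM equally in all libraries. MGP led in all 6 libraries, with 370.4 ± 66.7 and then 288.1 ± 19.9 FPKM. PHOSPHO1 came next at day 45 with 138.5 ± 25.5 FPKM, above ALPL with 75.7 ± 19.9 and SMPD3 with 50.5 ± 11.8. At day 85 ALPL took that place in all 3 libraries with 100.2 ± 22.1 FPKM, ahead of PHOSPHO1 with 70.1 ± 26.0 and SMPD3 with 64.5 ± 28.9, and the means of these last 2 differed by less than their spread, although PHOSPHO1 was the higher in each library. ANKH had 12.7 ± 4.04 and 47.2 ± 42.4 FPKM, and in day 85 replicate 2 it reached 96.1 FPKM, close to PHOSPHO1 with 98.2 and SMPD3 with 97.4. Below ALPL, PHOSPHO1 and SMPD3 in every library lay ENPP1 with 10.3 ± 3.08 and 21.2 ± 9.46, SLC20A2 with 9.90 ± 1.47 and 16.9 ± 7.13, and PHEX with 3.34 ± 1.74 and 9.78 ± 4.26. The order among ANKH, ENPP1 and SLC20A2 changed between libraries at each age.

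A ratio of 2 genes within a library does not depend on how the libraries were scaled. For 4 ratios, chosen after their values were seen and so given without a test, the clearest shift between ages concerned PHOSPHO1. PHOSPHO1 over ALPL was 1.88, 1.64 and 2.08 at day 45, against 0.541, 0.781 and 0.739 later, a 2.74-fold lower geometric mean. The vesicle phosphatase thus had the larger FPKM of the pair in every day 45 library and the smaller in every day 85 library. PHOSPHO1 over SMPD3, the phosphatase over the enzyme that supplies its substrate, was 2.61, 2.78 and 2.90 and then 1.09, 1.01 and 1.23, 2.50-fold lower. In both ratios day 85 replicate 2 lay close to the other day 85 libraries, unlike in the levels of the single genes, and leaving out any library kept the day 85 value at 0.341 to 0.419 of that at day 45.

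The balance of pyrophosphate breakdown to supply moved less clearly. ALPL over ENPP1 was 11.7, 6.65 and 5.19 at day 45, against 4.73, 3.96 and 6.53 later, and the ages overlapped. ANKH over ENPP1 was 1.29, 1.28 and 1.13 and then 1.34, 3.03 and 1.54. Day 85 was higher in every library, but in replicate 1 by little, and the geometric means were 1.23 and 1.84. Without day 85 replicate 2 the day 85 ratio was 1.17 times that of day 45.

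**Figure D3:**
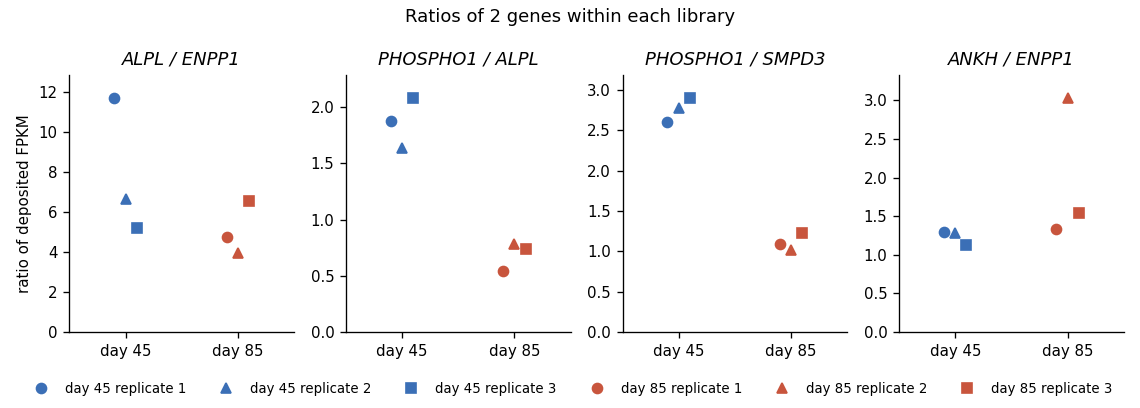
Ratio of the deposited FPKM of 2 genes within each library (vertical axis, from 0), with circles, triangles and squares for replicates 1, 2 and 3 of each age. PHOSPHO1 over ALPL lies between 1.64 and 2.08 at day 45 and between 0.541 and 0.781 at day 85, whereas ALPL over ENPP1 overlaps between the ages.

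Cell type markers moved with these genes between libraries. ALPL, SMPD3, ENPP1, ANKH and PHEX peaked in day 85 replicate 2. The summed levels of osteoclast, macrophage and red cell markers were also the highest of the 6 libraries there. So were those of osteoblast (81443 CPM against 31762 to 52750 in the others), osteocyte (1956.3 CPM against 208.2 to 835.5) and hypertrophic chondrocyte markers (2122.0 CPM against 482.0 to 1669.8). Of the osteocyte markers, DMP1 (1908.9 CPM) and FGF23 peaked there, SOST (16.2 CPM) and PDPN (16.6 CPM) lay below every day 45 library, and MEPE had few counts. Of the hypertrophic markers, MMP13 (1099.3 CPM) and COL10A1 (465.8 CPM) peaked there, whereas IHH, PTH1R, PANX3 and SCIN lay below every day 45 library. Of the 10 osteoclast markers, 10 had a positive log2 fold change and 0 were called, with a median of 3.47, and OCSTAMP was at 0 in a day 45 library. Muscle markers ran the other way, lowest in that library, as did pericyte and smooth muscle markers among the day 85 libraries (6215.4, 1422.1 and 5837.8 CPM). DES, which skeletal muscle also expresses, made up most of that sum in day 85 replicates 1 and 3 (4849.3 and 4413.6 CPM). The other 8 summed to 1366.1, 1077.4 and 1424.2 CPM, a check added after the data were seen. SLC20A2 was likewise lowest in replicate 2 among the day 85 libraries. The part of cell composition in the values of the 8 genes was not tested.

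**Figure D4:**
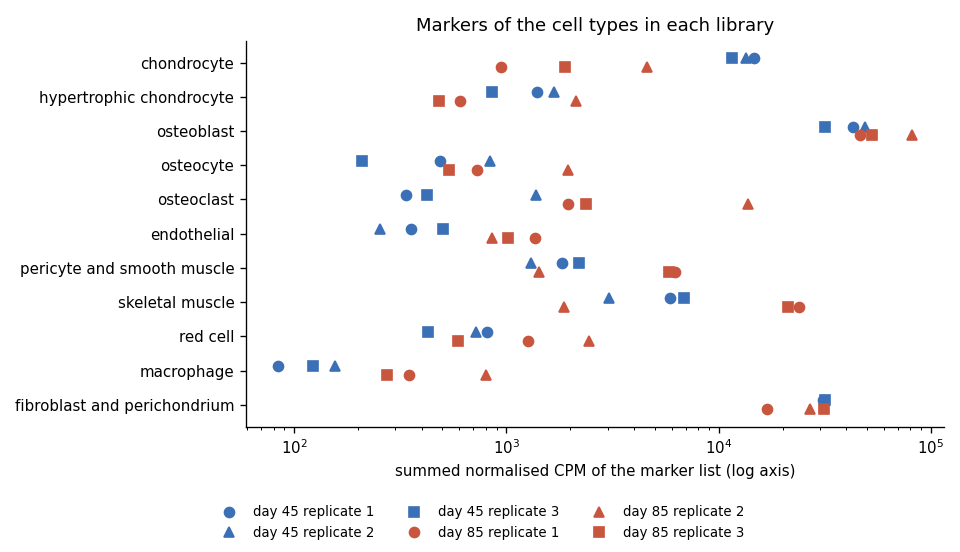
Summed normalised CPM (horizontal log axis) of 11 lists of cell type markers in each library, with circles, triangles and squares for replicates 1, 2 and 3. Chondrocyte markers fall apart by age, and day 85 replicate 2 has the highest osteoclast sum, 13821 CPM, and the lowest skeletal muscle sum, 1868.9 CPM.

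Each gene was also set beside the 125 other genes of the marker and pathway lists that had at least 1 CPM, by the root mean square difference of the centred log2 CPM profiles over 6 libraries. This describes likeness between libraries that share differences in cell content, and has no test. ALPL lay near the type I collagen chain COL1A2 (0.14), an osteoblast marker. SMPD3 had COL1A2 as its nearest gene (0.24). PHEX lay nearest to SPP1, which encodes osteopontin, and to FAM20A (0.34 and 0.37).

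PHOSPHO1 was closest to PTH1R, which receives parathyroid hormone and its related protein (0.14), and to the sphingomyelin synthase SGMS2 (0.15). PTH1R gave 751.8, 823.9 and 478.3 CPM at day 45, against 193.0, 465.8 and 261.6 CPM later. SGMS2, which makes the sphingomyelin that SMPD3 cleaves, stood at 190.5, 162.3 and 149.5 CPM and then at 60.2, 149.0 and 83.9 CPM, and neither was called with all libraries (adjusted p = 0.103 and 0.175). Both were called lower without day 85 replicate 2 (adjusted p = 0.0107 and 0.00707) and by DESeq2 (0.00472 and 0.0364). ENPP1 was closest to FAM20A, a partner of the secretory kinase FAM20C, at 0.11. FAM20A gave 7.71, 17.4 and 12.0 CPM, against 22.3, 46.5 and 17.7 CPM later (adjusted p = 0.138, and 0.167 without day 85 replicate 2), and DESeq2 called it higher (adjusted p = 0.0133).

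ANKH, in contrast, was nearest to the osteoclast proton pump subunit TCIRG1 (0.18) and to CSF1R, the receptor of the macrophage lineage (0.31). TCIRG1 stood at 32.4, 67.7 and 35.7 CPM and then at 60.9, 297.9 and 63.4 CPM, peaking as ANKH did in day 85 replicate 2. MGP was nearest to the carbonic anhydrase CA9 (0.13), and SLC20A2 to the endothelial sialomucin EMCN (0.28) and the smooth muscle actin ACTA2 (0.36). A gene with the same level in every library would have differed by 0.20 from MGP, 0.52 from SLC20A2 and 1.11 from ANKH.

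Around these genes, 66 further names in 5 lists cover the handling of pyrophosphate and ATP, phosphate transport and its hormones, matrix vesicle and phospholipid enzymes, inhibitors of mineral growth with the vitamin K cycle, and acid-base and ion supply. A row was found for 61 and 54 passed the filter on low counts. Of these 54, 1 rose and 2 fell, against 3.9% and 2.66% of all tested genes, and the median log2 fold change was 0.07. Unadjusted p-values were under 0.05 for 10 genes with higher and 9 with lower levels, where 15.8% and 13.3% of all genes had such values.

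PPA1, the cytosolic pyrophosphatase that splits pyrophosphate left by biosynthesis, fell from 81.4, 80.1 and 72.0 CPM to 32.9, 37.1 and 32.6 CPM. The 3 libraries of each age were close together, day 85 replicate 2 included, and the ages lay far apart. The log2 fold change was -1.19 with an SE of 0.12 (adjusted p = 0.0160). The call held without day 85 replicate 2 or 3 (adjusted p = 0.00191 and 0.0485) and was lost without each of day 45 replicates 1, 2 and 3 (0.103, 0.0774 and 0.0518) and day 85 replicate 1 (0.0509), while the log2 fold change stayed between -1.25 and -1.15.

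SLC29A1, the nucleoside transporter that takes up adenosine, rose from 115.3, 125.3 and 114.8 CPM to 197.8, 204.9 and 152.9 CPM (log2 fold change 0.64, SE 0.14, adjusted p = 0.0486). TRPV4, a calcium channel that chondrocytes use to sense load, fell from 25.5, 23.1 and 18.3 CPM to 3.25, 10.00 and 6.26 CPM (log2 fold change -1.77, SE 0.39, adjusted p = 0.0467). The row of TRPV4 was named through the ID table. Both calls held without day 85 replicate 2 (adjusted p = 0.0293 and 0.00580) and were lost without each of the other 5 libraries, where adjusted p ran up to 0.178 and 0.166. Endothelial markers, like SLC29A1, were higher at day 85, with sums of 255.3 to 501.0 CPM at day 45 and 852.6 to 1360.2 CPM at day 85. Within each age, however, their sum was lowest in replicate 2, where SLC29A1 was highest. Chondrocyte markers, like TRPV4, were lower at day 85, and their sum ordered the libraries of each age as TRPV4 did. The part of these cell types was not tested.

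The other 3 lists had no member that edgeR called with all libraries. DESeq2, in a fit that called 23.3% of all genes, called PTH1R, ANXA2, ANXA5, SGMS2, GPCPD1 and GGCX lower and FAM20A, ANXA1, SPP1 and BGLAP higher. It did not call VDR, FURIN, KL or ENPP2. In the edgeR fit without day 85 replicate 2, the receptors PTH1R and VDR and the protease FURIN were called lower in the phosphate list and KL higher. ANXA2, ANXA5, SGMS2 and ENPP2 were called lower among the matrix vesicle genes in that fit, and BGLAP higher in the list of inhibitors. Of 12 tested genes of phosphate transport and hormones, 6 had a positive and 6 a negative log2 fold change. The most abundant per length were PTH1R and the proprotein convertase FURIN, which cleaves FGF23, at 140.7, 142.3 and 121.9 CPM and then 81.9, 143.6 and 99.2 CPM (adjusted p = 0.360, and 0.0274 without day 85 replicate 2). Among 14 matrix vesicle and phospholipid genes the median was -0.17 with 9 negative. The annexins ANXA2 and ANXA6, calcium-dependent membrane proteins of matrix vesicles, led this list, and both stood lower in every day 85 library than in any of day 45. ANXA2 went from 1379.0, 1247.7 and 1210.0 CPM to 623.5, 1094.5 and 772.4 CPM (adjusted p = 0.129, and 0.0165 without day 85 replicate 2). ANXA6 went from 500.2, 471.7 and 495.5 CPM to 393.2, 309.9 and 459.6 CPM (adjusted p = 0.232, and 0.347 without that library).

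The list of inhibitors and vitamin K cycle genes also holds IBSP, a sialoprotein known to start mineral crystals, and DMP1, known to promote mineral. Of its 7 tested genes 5 had a positive log2 fold change, and the most abundant were SPP1 and IBSP. SPP1 ranged over 1064.0, 2639.7 and 680.3 CPM in the younger condyles and 4078.5, 10779 and 3462.2 CPM in the older (adjusted p = 0.111, and 0.122 without day 85 replicate 2). DESeq2 called SPP1 higher (adjusted p = 0.00236). IBSP overlapped between the ages (adjusted p = 0.951), and its log2 fold change was -0.84 (adjusted p = 0.0998) without day 85 replicate 2. AHSG, the serum inhibitor fetuin-A that the liver makes, was at 0 in 5 of the 6 libraries. Without day 85 replicate 2, 4 of the 54 genes were higher and 11 lower, in a fit that called 12.3% and 10.0% of all genes in those directions.

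**Figure D5:**
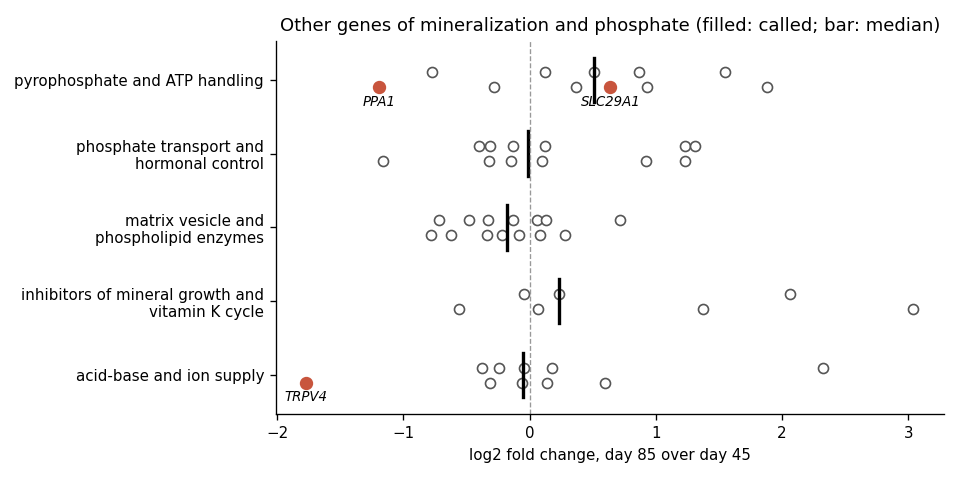
Log2 fold change of day 85 over day 45 (horizontal axis) of the 54 tested genes in 5 lists around mineral and phosphate, with filled points for called genes and a black bar for each list's median. PPA1, SLC29A1 and TRPV4 are the called genes, and the medians lie between -0.17 and 0.51.

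The genes are spread over the genome in the positions that the deposited table gives; its build is not stated in the labels or headers. ENPP1 lies on chromosome 1 from 35243792 to 35281384, MGP on chromosome 5 from 61054166 to 61058328, SMPD3 on chromosome 6 from 26120807 to 26204933, and ANKH on chromosome 16 from 4446886 to 4611009. The row assigned to SLC20A2 lies on chromosome 17 from 12887493 to 12901718 and PHEX on chromosome X from 19387210 to 19602421. ALPL is on a scaffold that is not placed on a chromosome, from 13511 to 34171.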

How the data were processed

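The table that the authors deposited holds whole-number counts and FPKM for each gene, per the file headers; HISAT2 is named without a version in the submitters' processing notes. The labels and headers do not state the counting program, its strand setting or the genome build. For 10748 genes with at least 50 counts in each library, the deposited FPKM equalled count over library total and a length per gene to within 0.00123%. The age in each title set the groups. Testing used edgeR 4.0.16 (R 4.3.3) on the counts: filterByExpr with a minimum count of 10, TMM scaling, robust dispersions and the quasi-likelihood F test on age, called at a Benjamini-Hochberg adjusted p under 0.05. The SE is the log2 fold change over the square root of F. Likeness used log2 of CPM plus 0.5. No pair of libraries was a duplicate (chi-square per degree of freedom 20.2 or more). Alternatives were RLE scaling, library totals alone, no filter, DESeq2 1.42.0, the replicate number as a block, and each library left out; the FPKM ratios, and leaving libraries out of them, were added after seeing the data.

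The 9 genes, 5 pathway lists and 11 marker lists were chosen with earlier results of these data known. Of 149 names in the lists, 15 were matched through the ID table and 16 had no matching row. All 9 genes are described whatever their test. Of each pathway list, called genes are named or, where there were none, the 2 most abundant per length. FGF23, SGMS2, DMP1 and AHSG were named after their values were seen. So were genes called only by DESeq2 or without day 85 replicate 2, and the genes nearest in profile beyond their rule. For ALPL, 1 nearer gene is not reported here.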

Additional observations from a re-analysis of the deposited data

How the results depend on the processing

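With 3 libraries per age, single libraries decide most calls. Of the 7 genes found by name, 0 were called higher and 0 lower with all libraries, under RLE scaling, under library totals and without a filter. DESeq2 called 3 higher and 1 lower, and leaving out each library in turn gave 0 higher and 0 to 1 lower. Directions of these 7 held under all 11 alternatives, except that SMPD3, at -0.08 to 0.61 with each library left out, turned negative without day 85 replicate 2. IBSP ran from -0.84 to 0.37 and FGF23 from -0.97 to 0.59 with each library left out, and both were negative with the block below (-0.15 and -0.24). Among the 54 other tested genes, 1 higher and 2 lower became 0 higher under library totals (SLC29A1 just outside the threshold), 8 higher and 10 lower with DESeq2, and 0 to 4 higher and 0 to 11 lower with each library left out. The median log2 fold change of all genes was 0.02 with TMM or RLE and -0.02 with library totals.

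In the labels, same-numbered libraries share only a number. Their deviations from the age means correlated at 0.0346, 0.302 and 0.103 across genes for numbers 1, 2 and 3. Day 45 replicates 1 and 2 correlated best with the day 85 library of their own number, and day 45 replicate 3 with day 85 replicate 1 (0.285). Whether the numbers pair the libraries cannot be told from these values. With the replicate number as a block, 1 of the 7 genes was called higher (PHEX, log2 fold change 1.62, adjusted p = 0.0324). Of the other genes, SPP1, DMP1 and CA2 were the 3 called higher and PPA1 the 1 called lower. The share of all genes called with the block was not computed, so these counts have no background beside them. The block ended the calls of SLC29A1 (adjusted p = 0.0625) and TRPV4 (adjusted p = 0.0593).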

Other observations

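A few genes of the pyrophosphate and ATP list are given here because of their values, and edgeR called none of them with all libraries. NT5E, the ectonucleotidase that releases adenosine and phosphate from AMP and that is lost in an inherited arterial calcification, gave 7.29, 10.8 and 11.8 CPM at day 45, against 30.9, 59.1 and 19.8 CPM later. The ages did not overlap, and edgeR left it just outside the threshold (log2 fold change 1.88, adjusted p = 0.0533). It was called without day 85 replicate 2 (log2 fold change 1.35, adjusted p = 0.0165). ENTPD1, which strips ATP to AMP, gave 5.57, 9.45 and 18.9 CPM, against 37.7, 41.8 and 20.1 CPM later (adjusted p = 0.107, and 0.117 without day 85 replicate 2). The other ectonucleotidases of that list, ENTPD5, ENPP3 and ENPP4, overlapped between the ages. ADK, the kinase that turns adenosine back into AMP, stood lower in every day 85 library, at 52.5, 51.2 and 48.7 CPM and then 20.1, 45.8 and 23.3 CPM (adjusted p = 0.157, and 0.00301 without day 85 replicate 2). With all libraries DESeq2 called NT5E and ENTPD1 higher and ADK lower (adjusted p = 1.39e-05, 0.00231 and 0.0296). Summed endothelial and macrophage markers, like NT5E and ENTPD1, were higher in every day 85 library than in any of day 45. NT5E and ENTPD1 peaked in day 85 replicate 2. There the macrophage sum was the highest of day 85 (803.3 CPM) and the endothelial sum the lowest (852.6 CPM). The part of these cell types was not tested.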
